A study of Homo sapiens and Mus musculus with 27 samples.

Results

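Tumours grown from the mouse mammary carcinoma cell line 4T1 were compared between mice given bortezomib with AMD3100 and mice given vehicle. The comparison takes every library whose title and table column name 4T1 with one of these groups, which gave 6 of the 27 samples of the series, 3 treated and 3 vehicle tumours. The tumours were implanted into Balb/c mice, and treated mice received 1 mg/kg bortezomib every 4 days and 5 mg/kg AMD3100 every 2 days. A further 3 tumours, from mice given the same bortezomib schedule with 0.05 mg/ml TM in the drinking water, entered the model to help estimate the spread between tumours. TM is kept as a name because the labels do not expand it. No 4T1 group received bortezomib or AMD3100 alone, so the parts of the 2 drugs cannot be told apart. The age and sex of the mice, the site of the implant, what the vehicle was and the time of collection were not among the labels. The title of the series places the work in the question of proteasome inhibition and CD8 T cell immunity in breast cancer.

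Bortezomib inhibits the proteasome, the complex that degrades tagged proteins, by binding its catalytic subunit Psmb5. Cells with an inhibited proteasome are known to raise genes of the proteasome itself, of heat shock and of stress programs. AMD3100 blocks Cxcr4, the receptor through which the chemokine Cxcl12 holds and guides leukocytes. Type I interferon is a signal of innate immunity that raises a broad antiviral gene program, while interferon-gamma from T and NK cells raises antigen presentation and the immunoproteasome. A bulk tumour holds cancer cells, stroma and many kinds of immune cell, so a difference in a gene can come from fewer cells of a type or from less RNA per cell, and these cannot be told apart.

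Total counts ran from 39628481 to 50735374 in the 6 tumours. Levels below are CPM, counts scaled to library size (TMM), and the level of a gene list in a tumour is the mean log2 CPM of its tested members. Tumours are named by group and replicate number. Vehicle tumour 1 carries a human species label and the MDA-MB-231 cell line label in some fields, while its title, library name and column say 4T1. Its profile in the mouse table correlated with those of vehicle tumours 2 and 3 at 0.98 and 0.976 across genes (log2 CPM), and genes are not independent replicates. With treated tumour 2 and TM tumour 3 it correlated at 0.978 and 0.984, so these values do not tell its group. The titles call the replicates biological without saying which mice they came from, so a p-value here reflects only how these samples vary, which may be partly technical. The epithelial keratins Krt8 and Krt18 were present in all 6 tumours, at 557 to 1345 and 341 to 872 CPM.

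No gene passed the test. Of 15846 genes tested with edgeR's quasi-likelihood F test, 0 were called at an adjusted p under 0.05 (0% of tested genes), and the smallest adjusted p was 0.414. At an unadjusted p under 0.05 there were 1144 genes (7.22%), 638 of them higher in treated tumours (4.03%) and 506 lower (3.19%). All 3 treated tumours lay above all 3 vehicle tumours for 954 genes (6.02%) and below them for 1163 (7.34%). The limma-voom test called 0 genes, with 951 at an unadjusted p under 0.05. DESeq2 called 21 genes, 9 higher and 12 lower (0.136% of the 15472 to which it gave an adjusted p). The 9 higher genes were Mcpt2, Grem1, Mex3b, Slco5a1, Dennd4a, Mamdc2, Col23a1, Havcr1 and Oas2. The 12 lower genes included Rnase2a, Ccl24, Ccl8, Retnla, Fcna, Mrc1, Msx3, Chga, Cyp24a1, Spint1 and Cstdc5. With edgeR, leaving out vehicle tumour 3 or treated tumour 2 gave 1 call each, Cyp24a1 and Mcpt2, and fitting the compared groups alone gave 1, Retnla. Because the main test called none, the differences below are measured values and not established changes. The median log2 difference over all tested genes was 0.0061.

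The largest axis of variation separated tumours within each group. The first principal component of the 6 tumours held 57.9% of the variance. Treated tumours 1 and 3 stood at 83.0 and 49.3 on it, vehicle tumour 3 at 7.46, and vehicle tumour 1, treated tumour 2 and vehicle tumour 2 at -38.2, -42.0 and -59.6. The 100 genes with the largest positive loadings included 10 of the 12 B cell markers. This component therefore did not follow the treatment, and one treated tumour sat between 2 vehicle tumours.

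Lymphocyte genes showed this split most plainly. Ms4a1, which encodes the B cell surface protein CD20, was measured at 0.142, 0.556 and 11.3 CPM in vehicle tumours 1, 2 and 3 and at 62.2, 0.67 and 39.2 CPM in treated tumours 1, 2 and 3. Treated tumour 2 lay inside the vehicle range, so the groups overlapped. All 12 tested B cell markers had a positive log2 difference, with a median of 3.04, yet 0 of 12 reached an unadjusted p under 0.05. Without vehicle tumour 3 that count was 11, with a median of 6.403, and without treated tumour 2 it was 3. Summed over the list, the B cell markers held 18.5, 17.9 and 198.7 CPM in vehicle and 1152, 12.04 and 643 CPM in treated tumours.

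A list of 8 genes of lymph node vessels and stroma, put together after the values were seen, had 7 tested members, of which 6 were higher and 1 lower on average, with a median log2 difference of 3.06. Madcam1, an adhesion molecule of those vessels, was the 1 of 7 at an unadjusted p under 0.05, against 4.03% of all genes. Ccl19, a T cell chemokine, was the lower one, at 0, 0 and 1.67 CPM in vehicle and 0.0879, 0 and 0.0389 CPM in treated tumours. Glycam1, a mucin-like ligand made by high endothelial venules of lymph nodes and also by mammary epithelium, was measured at 0.094, 0.582 and 13.7 CPM in vehicle and at 280, 0 and 275 CPM in treated tumours. The 0 counts in treated tumour 2 allow up to 0.0773 CPM, the level of 3 counts. Cxcl13, the chemokine that draws B cells into follicles, stood at 0.897, 0.683 and 6.30 CPM in vehicle and 17.5, 1.55 and 17.2 CPM in treated tumours. Cr2, a complement receptor of B cells and follicular dendritic cells, was at 0.378, 0.531 and 10.0 CPM against 48.7, 0.284 and 41.9 CPM. Treated tumours 1 and 3 and vehicle tumour 3 were high for Glycam1, Cxcl13 and Cr2, and the other tumours were low. Among the tumours given TM, replicates 1 and 2 were high for Glycam1, at 123 and 172 CPM, and replicate 3 had 0. The part of these genes in the lymphocyte differences was not tested. Of the milk genes, Csn2 and Wap had at most 8 counts in any tumour, and Csn3 stood at 6.12, 3.9 and 10.4 CPM in vehicle and 6.59, 13.9 and 8.18 CPM in treated tumours.

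**Figure D1:**
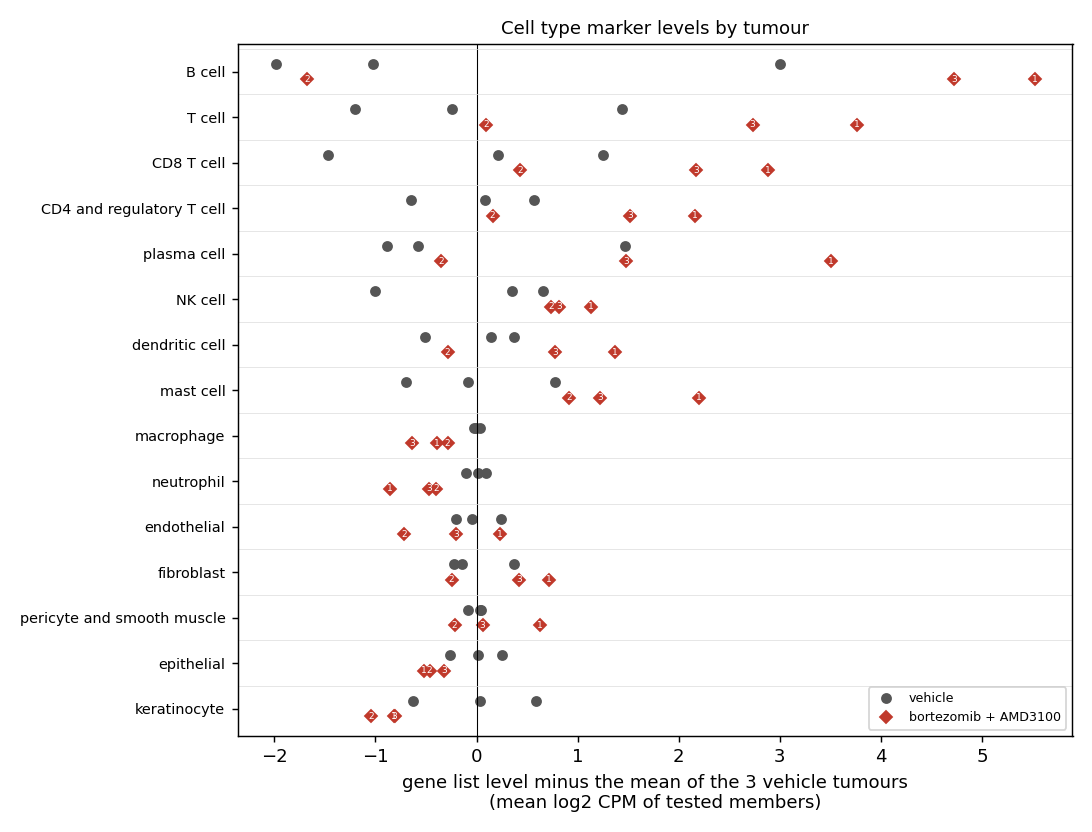
Marker level of 15 cell types in each tumour (mean log2 CPM of tested markers, x axis) minus the mean of the 3 vehicle tumours, with vehicle tumours as grey circles and treated tumours as red diamonds numbered by replicate. Treated tumours 1 and 3 are far right for B and T cells and treated tumour 2 is among the vehicle tumours, while the neutrophil and epithelial levels of all 3 treated tumours lie left of the vehicle tumours. The macrophage levels do so too, but overlap once Mrc1 and Cd163 are left out.

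T cell markers were higher on average in treated tumours, with overlap. Cd3e, a chain of the T cell receptor complex, was measured at 5.81, 2.78 and 15.4 CPM in vehicle and 80.3, 7.84 and 35.9 CPM in treated tumours. Its log2 difference was 2.37 (SE 0.94, unadjusted p = 0.0321, adjusted p = 0.634, edgeR). The T cell level was 2.11, 1.15 and 3.79 in vehicle and 6.11, 2.44 and 5.08 in treated tumours, so that treated tumour 2 lay below vehicle tumour 3. All 12 tested T cell markers had a positive difference, with a median of 2.41, and 10 of 12 reached an unadjusted p under 0.05 against 4.03% of all genes in that direction. Leaving out vehicle tumour 1, vehicle tumour 2 or treated tumour 1 brought that count to 0 in each case, leaving out treated tumour 3 or TM tumour 2 to 2 and 3, and the replicate number as a block to 4. It was also 0 with limma-voom, and with the pan-leukocyte, neutrophil, epithelial or fibroblast level as a covariate.

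CD8 T cell genes are those the title of the series points to. Cd8a, a chain of the CD8 coreceptor of cytotoxic T cells, was measured at 17.9, 5.16 and 32.2 CPM in vehicle and 93.4, 19.9 and 55.8 CPM in treated tumours, a log2 difference of 1.61 (SE 0.72, adjusted p = 0.634, edgeR). Cd8b1, its partner chain, stood at 5.34, 1.77 and 12.7 CPM and at 42.1, 6.55 and 26.2 CPM, a log2 difference of 1.91 (SE 0.88). For both, treated tumours 1 and 3 exceeded every vehicle tumour and treated tumour 2 lay inside the vehicle range. Cd4, the coreceptor of helper T cells, was at 5.71, 3.19 and 17.2 CPM in vehicle and 119, 7.09 and 49.6 CPM in treated tumours. Foxp3, the transcription factor of regulatory T cells, was at 3.05, 2.38 and 4.61 CPM and 21.3, 2.63 and 12.7 CPM. CD4 and regulatory genes were thus high in the same treated tumours as the CD8 genes.

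Effector genes of cytotoxic cells differed less than the T cell markers. Gzmb, a protease of cytotoxic granules, was measured at 20.6, 8.42 and 16.2 CPM in vehicle and 14.3, 12.2 and 11.8 CPM in treated tumours, a log2 difference of -0.24 (SE 0.31). Prf1, which encodes perforin, stood at 20.4, 4.76 and 17.8 CPM and 19.9, 13.6 and 16.1 CPM, a difference of 0.21 (SE 0.44). Ifng, the interferon-gamma gene, was at 1.1097, 0.734 and 1.54 CPM and 1.10, 2.09 and 1.40 CPM, a difference of 0.43 (SE 0.43). Every treated tumour lay inside the vehicle range for Gzmb and Prf1. Of the 12 cytotoxic genes tested, 11 had a positive difference, with a median of 0.73. An unadjusted p under 0.05 was reached by 2 of 12, namely Ccl5 and Ctsw, against 4.03% of all genes.

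The cytotoxic level itself was 2.03, 1.42 and 2.50 in vehicle and 3.08, 2.35 and 2.48 in treated tumours, highest in treated tumour 1. Its ratio to the T cell level of the same tumour was lowest where T cell markers were highest. The T cell level is subtracted in this ratio and varied more between tumours, so that order follows in part from the ratio itself. The cytotoxic level minus the T cell level was -0.08, 0.27 and -1.29 in vehicle and -3.04, -0.10 and -2.60 in treated tumours (log2). The 2 treated tumours with high B and T cell levels had the lowest ratios, and treated tumour 2 lay with the vehicle tumours. Gzmb over the T cell level was 2.26, 1.93 and 0.23 in vehicle and -2.27, 1.18 and -1.52 in treated tumours. The CD8 T cell level minus the T cell level was 1.19, 0.47 and 0.55 against -0.14, 1.08 and 0.18. The NK cell level itself was 0.66, -0.70 and 0.97 in vehicle and 1.45, 1.05 and 1.13 in treated tumours, without overlap. Such a level without overlap, in either direction, was found for 8 of 48 lists. Of the 6 tested NK cell markers 0 reached an unadjusted p under 0.05. For 1 of 6 every treated tumour lay above every vehicle tumour, against 6.02% of all genes. Taken over the NK cell level, the cytotoxic level differed by -0.25 between the group means, with group SDs of 0.40 and 0.18. The share of T cells that carried these transcripts was not measured in bulk RNA.

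Type I interferon genes were higher on average in treated tumours, and treated tumour 2, with few lymphocyte transcripts, lay with the other treated tumours. Oas2, an antiviral sensor of double-stranded RNA, was measured at 21.4, 10.9 and 30.01 CPM in vehicle and 52.2, 45.7 and 47.6 CPM in treated tumours, a log2 difference of 1.22 (SE 0.31, adjusted p = 0.634, edgeR). Irf7, the transcription factor that amplifies the interferon response, stood at 56.3, 37.2 and 88.8 CPM and 144, 107 and 133 CPM, a difference of 1.07 (SE 0.28). The rule that named both genes required groups without overlap. Ddx58, which encodes the RNA sensor RIG-I, was at 66.4, 50.01 and 69.3 CPM against 103, 96.0 and 85.5 CPM, a difference of 0.62 (SE 0.14). Irf9, the DNA-binding part of the complex that carries the type I signal, was at 66.7, 55.1 and 73.0 CPM against 102, 84.6 and 92.8 CPM, a difference of 0.52 (SE 0.12). These 4 genes were among the 10 with the smallest p in their direction, and none passed the adjusted threshold.

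The list as a whole showed the same order. All 20 tested type I interferon genes had a positive difference, with a median of 0.77 and a range from 0.32 to 1.22. Of these, 15 reached an unadjusted p under 0.05 against 4.03% of all genes, and for 16 every treated tumour lay above every vehicle tumour against 6.02% of all genes. The genes of highest level were Bst2, which tethers budding virus particles, at 209, 141 and 263 CPM in vehicle and 263, 252 and 277 CPM in treated tumours, and Stat2, the partner of Irf9, at 151, 96.2 and 158 CPM against 178, 192 and 191 CPM. Bst2 overlapped and Stat2 did not. The level of the list was 4.95, 4.09 and 5.19 in vehicle and 5.59, 5.52 and 5.66 in treated tumours, so the treated tumours were close together and vehicle tumour 2 was lowest. Without vehicle tumour 2 the median was 0.52 and 10 of 20 genes reached an unadjusted p under 0.05. With each tumour left out in turn the count ran from 10 to 18.

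**Figure D2:**
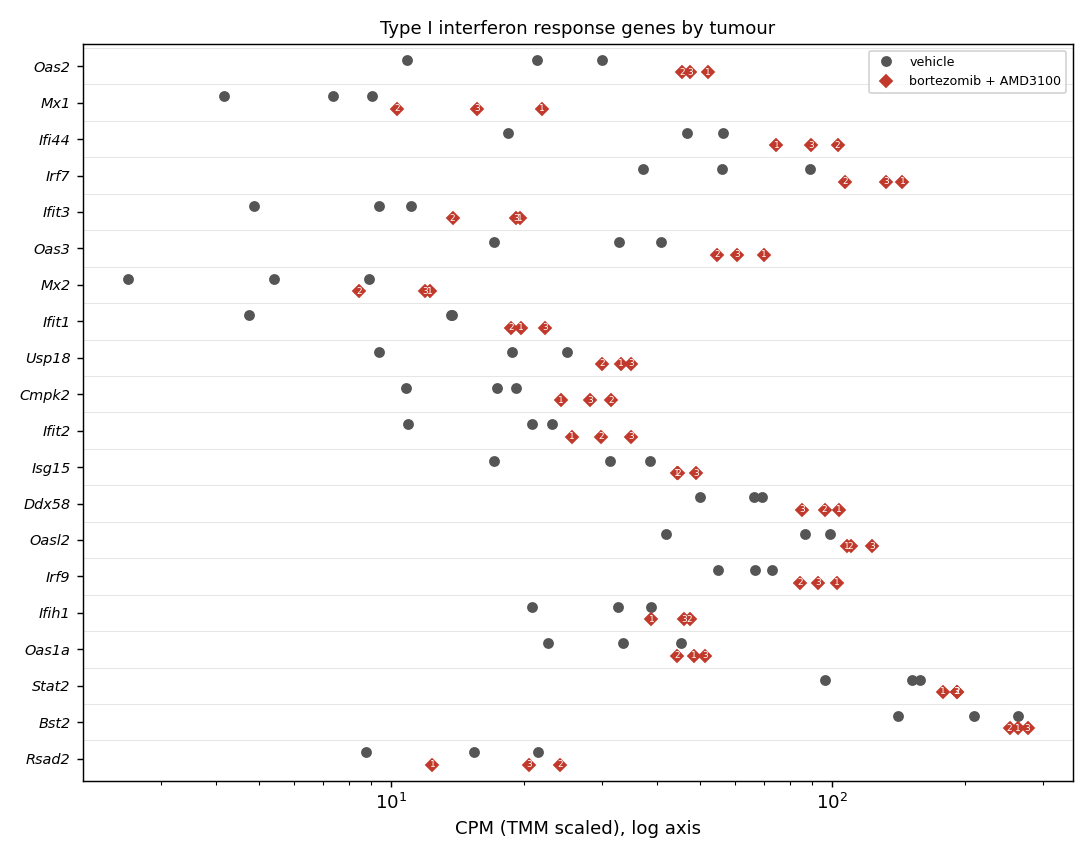
CPM of the 20 tested type I interferon response genes (log axis) in vehicle tumours (grey circles) and treated tumours (red diamonds, numbered by replicate), ordered by log2 difference. For 16 genes all treated tumours lie to the right of all vehicle tumours, treated tumour 2 among them.

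Genes that respond mainly to interferon-gamma had smaller differences. Cxcl9, a chemokine for activated T cells, was measured at 134, 76.5 and 105 CPM in vehicle and 105, 136 and 107 CPM in treated tumours, a log2 difference of 0.14 (SE 0.19). Cxcl10, a chemokine raised by both interferon types, stood at 27.6, 20.9 and 35.0 CPM and 42.9, 54.2 and 48.5 CPM, a difference of 0.80 (SE 0.24). Cxcl10 did not overlap between the groups, and Cxcl9 did. Of 15 tested genes in this list 14 had a positive difference, with a median of 0.26. An unadjusted p under 0.05 was reached by 1 of 15, Cxcl10, against 4.03% of all genes. Without vehicle tumour 2 the median of this list was 0.04, with 9 of 15 positive.

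Antigen presentation genes overlapped between the groups. B2m, the invariant chain of MHC class I, was measured at 1872, 1441 and 1917 CPM in vehicle and 1767, 1800 and 2141 CPM in treated tumours, a log2 difference of 0.13 (SE 0.16). Psmb8, a catalytic subunit of the immunoproteasome, stood at 449, 284 and 538 CPM and 438, 423 and 468 CPM, a difference of 0.06 (SE 0.22). Psmb9 and Psmb10, the other interferon-induced catalytic subunits, had differences of 0.23 (SE 0.25) and 0.04 (SE 0.22). Tap1, which pumps peptides to MHC class I, was at 445, 244 and 470 CPM against 550, 516 and 534 CPM and did not overlap, a gene chosen after its values were seen. In the class I list 10 of 13 tested genes were positive, with a median of 0.13 and 0 at an unadjusted p under 0.05. Cd274, which encodes the checkpoint ligand PD-L1, was at 94.5, 43.1 and 72.7 CPM against 84.9, 88.8 and 81.4 CPM, a difference of 0.28 (SE 0.23).

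Genes of alternatively activated macrophages were lower in treated tumours. Retnla, a secreted marker of macrophages stimulated by interleukin 4, was measured at 21.4, 17.1 and 16.8 CPM in vehicle and 1.82, 2.37 and 2.02 CPM in treated tumours, a log2 difference of -3.15 (SE 0.63, adjusted p = 0.634, edgeR). Ccl24, an eosinophil chemokine, stood at 11.6, 21.4 and 11.7 CPM and 1.49, 2.76 and 3.05 CPM, a difference of -2.61 (SE 0.37, adjusted p = 0.414, edgeR). The rule that named both genes required groups without overlap. Chil3, a chitinase-like protein of these cells, was at 44.3, 50.7 and 26.2 CPM against 16.0, 6.93 and 8.10 CPM, a difference of -1.97 (SE 0.82). Arg1, the arginine-degrading enzyme of the same program, was at 578, 638 and 782 CPM against 538, 396 and 475 CPM, a difference of -0.50 (SE 0.24). Both were lower in all 3 treated tumours.

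Within this list 8 of 9 tested genes had a negative difference, with a median of -0.71. An unadjusted p under 0.05 was reached by 3 of 9 genes, Retnla, Ccl24 and Chil3, against 3.19% of all genes, and 4 of 9 did not overlap, against 7.34%. The exception in sign was Ccl22, a chemokine also made by dendritic cells, at 26.4, 12.4 and 18.5 CPM against 34.3, 10.2 and 26.8 CPM. The level of the list was 4.58, 4.15 and 4.08 in vehicle and 3.24, 2.72 and 3.19 in treated tumours. Treated tumour 2, whose lymphocyte level was low, had the lowest value of all.

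Ccl8, Rnase2a and Fcna were among the 10 lower genes of smallest p, and Mrc1 was chosen after its values were seen. Ccl8, a monocyte chemokine, was measured at 268, 394 and 201 CPM in vehicle and 97.8, 110 and 93.9 CPM in treated tumours, a log2 difference of -1.51 (SE 0.24, adjusted p = 0.599, edgeR). Rnase2a, a ribonuclease gene with near-identical relatives, stood at 27.1, 31.7 and 24.6 CPM and 4.28, 6.24 and 3.17 CPM, a difference of -2.61 (SE 0.36, adjusted p = 0.414, edgeR). Fcna, a lectin of macrophages, was at 20.6, 44.6 and 14.1 CPM against 6.24, 5.26 and 5.98 CPM, a difference of -2.18 (SE 0.43). Mrc1, the mannose receptor, was at 321, 651 and 199 CPM against 136, 132 and 108 CPM, a difference of -1.64 (SE 0.44). The rule behind the first 3 required groups without overlap. Cd163, a scavenger receptor chosen after its values were seen, spread widely in vehicle tumours, at 62.6, 300 and 13.0 CPM, against 8.79, 16.4 and 7.62 CPM, and overlapped.

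Adgre1, which encodes F4/80, was measured at 59.0, 47.4 and 78.7 CPM in vehicle and 44.1, 61.1 and 45.2 CPM in treated tumours, a log2 difference of -0.30 (SE 0.24). Csf1r, the receptor that sustains macrophages, was at 258, 247 and 332 CPM against 301, 297 and 215 CPM, a difference of -0.04 (SE 0.24). Both overlapped. The macrophage level was 6.76, 6.798 and 6.74 in vehicle and 6.37, 6.48 and 6.13 in treated tumours. Of 14 macrophage markers 12 were negative, with a median of -0.29. For 3 of 14 every treated tumour lay below every vehicle tumour, against 7.34% of all genes. An unadjusted p under 0.05 was reached by 2 of 14, Mrc1 and Cd163, against 3.19% of all genes. Without those 2 genes, a choice made after seeing the data, the macrophage level was 6.69, 6.47 and 6.92 in vehicle and 6.58, 6.63 and 6.34 in treated tumours, and the groups overlapped. The level of the whole alternative list minus the macrophage level was -2.18, -2.65 and -2.66 in vehicle and -3.13, -3.76 and -2.94 in treated tumours. Over the level without Mrc1 and Cd163 it was -2.12, -2.32 and -2.84 in vehicle and -3.34, -3.91 and -3.15 in treated tumours. The members of the list did not share this. Arg1 over the full macrophage level was 2.42, 2.52 and 2.87 in vehicle and 2.70, 2.15 and 2.76 in treated tumours. That was a difference of -0.07, with overlap. Retnla and Ccl24, named by their small p, differed by -2.69 and -2.16 over the same level.

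**Figure D3:**
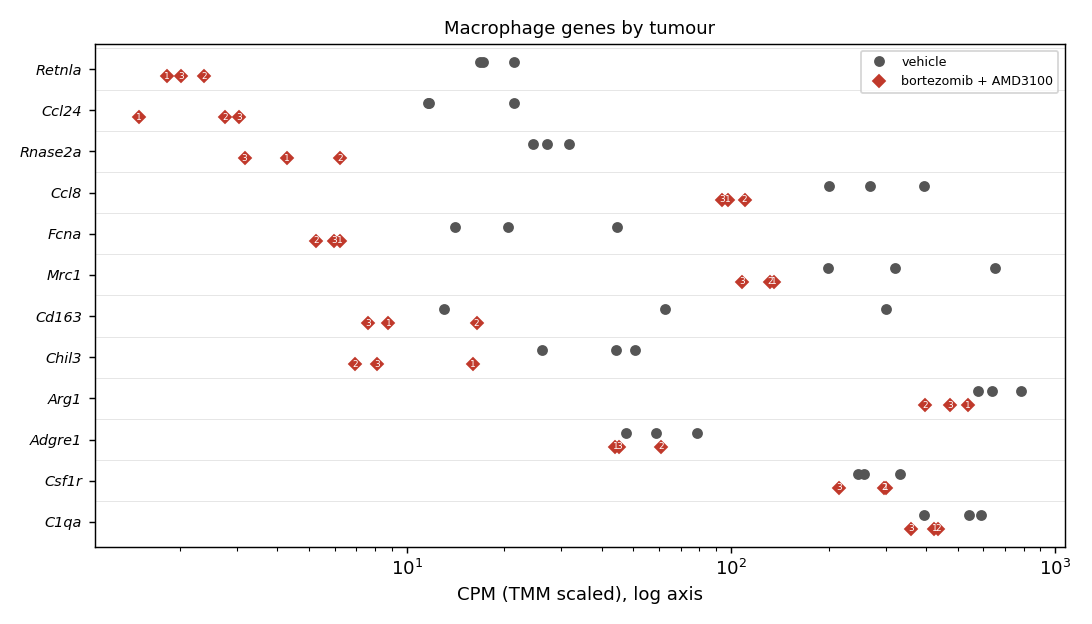
CPM of 12 macrophage genes (log axis) in vehicle tumours (grey circles) and treated tumours (red diamonds, numbered by replicate). The groups are far apart for Retnla, Ccl24 and Rnase2a, and they overlap for the general markers Adgre1, Csf1r and C1qa.

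Other myeloid and mast cell genes also differed in level. S100a8, an abundant protein of neutrophils, was measured at 27.1, 25.3 and 15.3 CPM in vehicle and 4.17, 13.9 and 12.2 CPM in treated tumours, a log2 difference of -1.16 (SE 0.40). Retnlg, a neutrophil relative of Retnla chosen after its values were seen, was at 4.86, 6.83 and 2.18 CPM against 0.857, 1.65 and 1.34 CPM, a difference of -1.85 (SE 0.53). Neither overlapped. Of 12 neutrophil markers 9 were negative, with a median of -0.52 and 3 at an unadjusted p under 0.05, against 3.19% of all genes. The receptors Csf3r and Cxcr2 differed by -0.35 (SE 0.32) and -0.10 (SE 0.46), with overlap.

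Mast cell genes were higher on average. Cpa3, a protease of mast cell granules, was measured at 4.42, 1.21 and 3.27 CPM in vehicle and 15.9, 7.17 and 9.27 CPM in treated tumours, a log2 difference of 1.86 (SE 0.63). Mcpt2, a mucosal mast cell protease with a close relative in Mcpt1, stood at 1.91, 1.26 and 1.56 CPM and 14.0, 2.68 and 9.77 CPM, a difference of 2.48 (SE 0.51). Cpa3 did not overlap, Mcpt2 was named by the rule that required this, and treated tumour 2 was the lowest of the treated tumours. All 6 mast cell markers were positive, with a median of 1.40. An unadjusted p under 0.05 was reached by 5 of 6, against 4.03% of all genes. Without treated tumour 1 that count was 0, and without vehicle tumour 2 or vehicle tumour 3 it was 1 each.

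Epithelial genes were lower on average in treated tumours. Krt8, a keratin of simple epithelium and of the cancer cells, was measured at 1190, 1345 and 794 CPM in vehicle and 557, 620 and 698 CPM in treated tumours, a log2 difference of -0.83 (SE 0.25, adjusted p = 0.634, edgeR). Krt18, its pairing partner, stood at 745, 872 and 541 CPM and 341, 408 and 457 CPM, a difference of -0.84 (SE 0.22). Krt7, another keratin of glandular epithelium chosen after its values were seen, was at 168, 132 and 153 CPM against 77.2, 73.6 and 79.2 CPM, a difference of -0.98 (SE 0.29). The groups did not overlap for these 3 keratins. Epcam, an epithelial adhesion protein, was at 54.4, 18.7 and 22.9 CPM against 11.4, 25.2 and 16.2 CPM, a difference of -0.87 (SE 0.49), and overlapped. St14 and Cldn4, 2 further members of high level, differed by 0.06 (SE 0.34) and -0.79 (SE 0.33), and both overlapped. Of 16 tested epithelial genes 13 were negative, with a median of -0.66, and 3 were positive, the largest at 1.35. For 6 of 16 every treated tumour lay below every vehicle tumour, against 7.34% of all genes. An unadjusted p under 0.05 was reached by 7 of 16, all lower, against 3.19% of all genes. The epithelial level was 5.29, 4.77 and 5.05 in vehicle and 4.51, 4.57 and 4.72 in treated tumours.

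The fibroblast and endothelial levels overlapped between the groups. Col1a1, the main collagen of fibroblasts, was measured at 1957, 1057 and 1604 CPM in vehicle and 2007, 1797 and 1854 CPM in treated tumours, a log2 difference of 0.29 (SE 0.42). The fibroblast level was 4.97, 4.46 and 4.37 against 5.31, 4.35 and 5.02, and the endothelial level 4.44, 4.73 and 4.28 against 4.71, 3.77 and 4.28. Of 12 fibroblast markers 9 were positive, with a median of 0.36. Of these 12, 2 were higher at an unadjusted p under 0.05, against 4.03% of all genes. Of 12 endothelial markers 9 were negative, with a median of -0.20 and 0 at that threshold. For 1 endothelial marker every treated tumour lay below every vehicle tumour, against 7.34% of all genes. Adipoq, an adipocyte hormone, was at 8.36, 2.43 and 2.82 CPM against 8.17, 1.44 and 7.07 CPM. Acta1, the actin of skeletal muscle, was at or under 1.96 CPM in all 6 tumours. Adipoq thus varied within both groups.

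Genes tied to proteasome inhibition showed small differences. Psmb5, the subunit bortezomib binds, was measured at 39.5, 38.9 and 44.4 CPM in vehicle and 29.4, 32.4 and 37.8 CPM in treated tumours, a log2 difference of -0.30 (SE 0.15, adjusted p = 0.634, edgeR). Psmb5 was lower in all 3 treated tumours. Of 32 tested genes of the 26S proteasome 5 were positive, with a median of -0.10, and 0 reached an unadjusted p under 0.05. For 3 of 32 every treated tumour lay below every vehicle tumour, against 7.34% of all genes. Hspa1a, an inducible heat shock chaperone, was at 15.9, 11.6 and 15.0 CPM against 6.99, 22.1 and 14.1 CPM, a difference of 0.02 (SE 0.39). The treated tumours enclosed the vehicle range for Hspa1a, whose near copy Hspa1b can share its reads. Of 19 heat shock genes 3 were positive, with a median of -0.20. An unadjusted p under 0.05 was reached by 1 of 19, the co-chaperone Ahsa1, which was lower, against 3.19% of all genes. The time between the last dose and collection is not stated in the labels, so an early response could not be examined.

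Further stress programs had medians near that of all genes. Hmox1, which degrades heme and responds to oxidative stress, was measured at 130, 107 and 112 CPM in vehicle and 115, 136 and 110 CPM in treated tumours, a log2 difference of 0.05 (SE 0.22). Gdf15, a stress cytokine, was at 1.56, 0.809 and 1.1108 CPM against 0.813, 0.619 and 0.661 CPM, a difference of -0.73 (SE 0.51). Cdkn1a, the p53 target p21, was at 74.6, 70.4 and 79.0 CPM against 58.4, 64.8 and 73.8 CPM, a difference of -0.19 (SE 0.16). All 3 genes overlapped. The list medians were -0.02 for 16 genes of endoplasmic reticulum chaperones, 0.15 for 20 genes of ATF4 and CHOP, -0.05 for 18 antioxidant genes of NRF2 and 0.10 for 19 p53 targets. The unadjusted p was under 0.05 for 0, 1, 4 and 3 genes of these lists, in the same order, against 7.22% of all genes. In the NRF2 list 3 of 18 genes were lower at that threshold, against 3.19% of all genes, and 1 was higher, against 4.03%. Those lower were Osgin1, Gsr, which regenerates glutathione, and Fth1, an iron storage subunit, and the one higher was Gclc, of glutathione synthesis. Every treated tumour lay below every vehicle tumour for 5 of the 18, against 7.34% of all genes, and above for 2, against 6.02%. In the endoplasmic reticulum list those counts were 1 and 2 of 16. Osgin1 was at 20.1, 22.1 and 19.2 CPM in vehicle and 14.6, 14.4 and 13.95 CPM in treated tumours, a difference of -0.52 (SE 0.15). Slc31a1, the copper importer, differed by -0.05 (SE 0.12), and Mt2, a metal-binding metallothionein, by -0.08 (SE 0.56).

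Proliferation and metabolism lists had medians near that of all genes. Mki67, a marker of cycling cells, was measured at 293, 268 and 273 CPM in vehicle and 230, 440 and 281 CPM in treated tumours, a log2 difference of 0.19 (SE 0.22). Treated tumour 2 had the highest value and treated tumour 1 the lowest. The list of 20 genes of G2 and M phase had a median of 0.07, that of 20 replication genes 0.01, that of 20 hypoxia and glycolysis genes -0.08 and that of 19 ribosomal proteins -0.13, each with 0 genes at an unadjusted p under 0.05. In the list of 14 cholesterol synthesis genes the median was 0.20. An unadjusted p under 0.05 was reached by 1 of 14, the regulator Srebf2, against 4.03% of all genes.

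**Figure D4:**
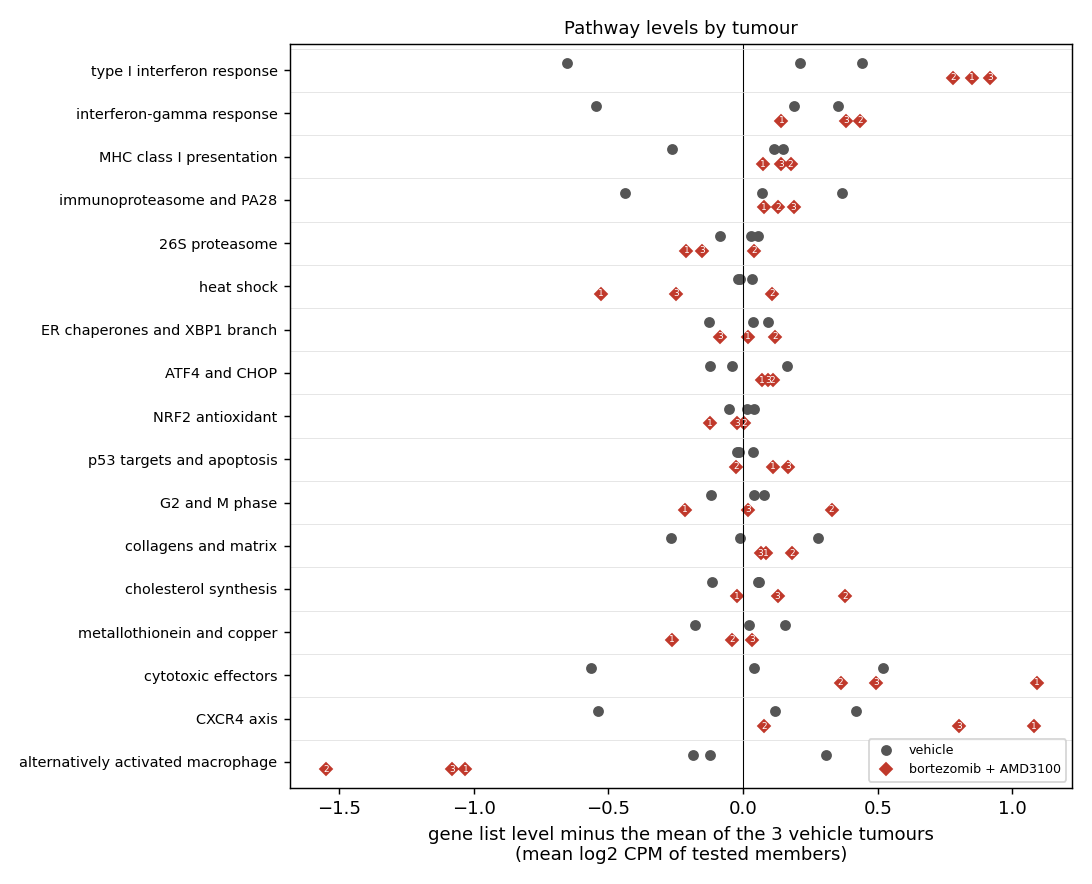
Level of 17 pathway lists in each tumour (mean log2 CPM of tested members, x axis) minus the mean of the 3 vehicle tumours, with vehicle tumours as grey circles and treated tumours as red diamonds numbered by replicate. The type I interferon list lies right and the alternatively activated macrophage list left of all vehicle tumours, and the proteasome and stress lists overlap.

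All 5 tested genes of the axis that AMD3100 blocks overlapped between the groups, with a median of 0.33. An unadjusted p under 0.05 was reached by 1 of 5, Dpp4, against 4.03% of all genes. Cxcr4, the receptor itself, was measured at 23.5, 26.7 and 28.4 CPM in vehicle and 43.6, 21.99 and 29.1 CPM in treated tumours, a log2 difference of 0.27 (SE 0.33). Its ligand Cxcl12 stood at 24.5, 8.32 and 31.9 CPM and 105, 12.6 and 59.8 CPM, a difference of 1.45 (SE 0.76). Cxcl12 was high in the treated tumours with high lymphocyte levels, and Cxcr4 was highest in treated tumour 1. Dpp4, a protease that cleaves Cxcl12, was at 4.32, 2.23 and 7.88 CPM against 29.2, 6.06 and 17.2 CPM, a difference of 1.86 (SE 0.81). Ackr3, a scavenger receptor for the same ligand, was at 44.8, 21.7 and 41.5 CPM against 32.7, 55.0 and 48.2 CPM, a difference of 0.33 (SE 0.28). With the B cell level in the model the difference of Cxcl12 was 0.26 and that of Cxcr4 was -0.09. The sign of the Cxcr4 difference changed in 6 of 23 alternatives. Transcript levels do not measure whether the receptor was occupied.

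Because the tumours differed in the level of lymphocyte transcripts, the model was refitted with the B cell level of each tumour as a covariate. The median difference of the T cell list was 0.92 in place of 2.41, with 5 of 12 genes at an unadjusted p under 0.05, against 2.61% of all genes. The median of the B cell list was -0.08 by construction. The type I interferon list had a median of 0.67, with 13 of 20 genes at an unadjusted p under 0.05. The alternatively activated macrophage list had a median of -0.68, with 2 of 9 genes, against 2.33% of all genes, and the epithelial list -0.49, with 7 of 16. For mast cells the median was 0.93, with 1 of 6. In that model 0 genes were called, and the smallest adjusted p was 0.0566, with 413 genes higher and 370 lower at an unadjusted p under 0.05. With the T cell or neutrophil level in its place the type I interferon count was 9 or 8 of 20. Of 15846 genes 303 or 443 were higher in those fits at that threshold. With the epithelial level the medians were 1.10 for type I interferon and -0.90 for alternatively activated macrophages. An unadjusted p under 0.05 was reached by 12 of 15 interferon-gamma genes in place of 1. In that fit 359 of 15846 genes were higher at the same threshold. The epithelial level was itself lower in every treated tumour than in every vehicle tumour. With the pan-leukocyte or T cell level the epithelial count was 2 of 16. In those fits 370 or 365 of 15846 genes were lower at the same threshold.

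Ratios to the epithelial level showed the same dependence. The MHC class I level minus the epithelial level was 4.02, 4.11 and 4.21 in vehicle and 4.71, 4.76 and 4.58 in treated tumours, without overlap. Its group means differed by 0.57 as a ratio and by 0.13 without it, the remainder being the difference of -0.44 in the epithelial level. The immunoproteasome list differed by 0.57 as a ratio and 0.13 without it, and the endoplasmic reticulum list by 0.45 and 0.02.

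**Figure D5:**
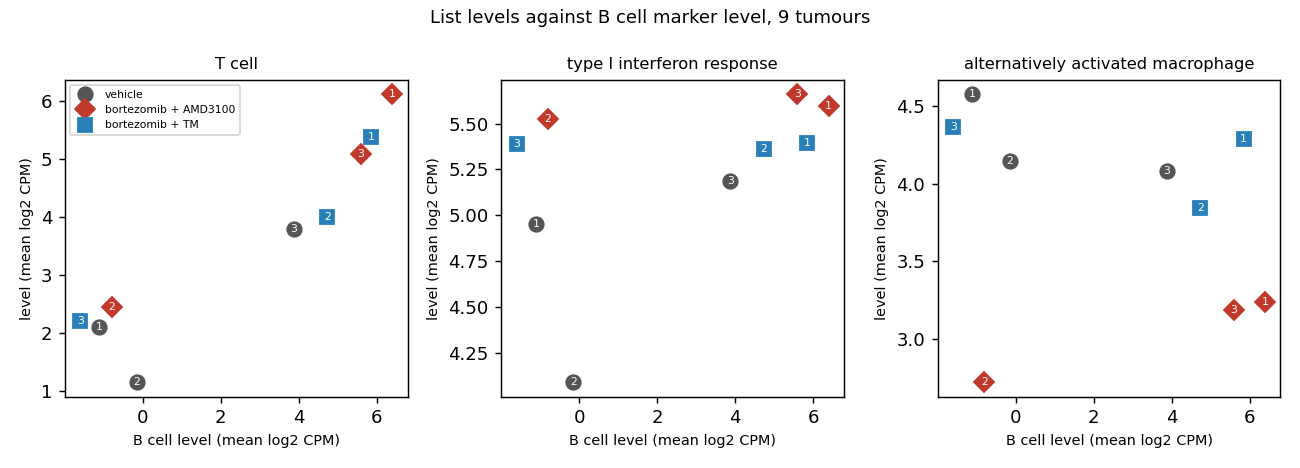
Level of 3 gene lists (mean log2 CPM, y axis) against the B cell level (mean log2 CPM, x axis) in 9 tumours, with vehicle as grey circles, bortezomib with AMD3100 as red diamonds and bortezomib with TM as blue squares, numbered by replicate. T cell levels are high where B cell levels are high in every group, while treated tumour 2, with a B cell level of -0.80, has a high interferon level of 5.52 and the lowest alternatively activated macrophage level of 2.72.

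Other genes among the 10 of smallest p in each direction had mixed functions. Grem1, a secreted antagonist of bone morphogenetic proteins, was measured at 4.84, 3.09 and 6.39 CPM in vehicle and 12.3, 11.3 and 17.7 CPM in treated tumours, a log2 difference of 1.53 (SE 0.29). Mex3b, an RNA-binding protein, stood at 7.84, 8.04 and 7.31 CPM and 12.9, 13.2 and 13.4 CPM, a difference of 0.77 (SE 0.15). The rule that named the genes of this paragraph required groups without overlap and a small p. Dennd4a, Slco5a1 and Dusp10, a phosphatase of stress kinases, differed by 0.70 (SE 0.15), 1.58 (SE 0.34) and 0.72 (SE 0.18). On the lower side, Spint1, an inhibitor of epithelial serine proteases, was at 87.8, 112 and 93.3 CPM against 60.5, 60.4 and 66.0 CPM, a difference of -0.65 (SE 0.12). Chga, a protein of secretory granules, was at 9.49, 9.84 and 4.53 CPM against 1.16, 0.75 and 0.95 CPM, a difference of -3.05 (SE 0.64). Msx3 and Tinagl1 differed by -2.08 (SE 0.39) and -0.47 (SE 0.10).

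Against the other bortezomib arm the same test called 0 genes (0% of tested genes), with 454 at an unadjusted p under 0.05 (2.87%) and a smallest adjusted p of 0.996. DESeq2 called 4 genes (0.0194%), Rnase2a, Ccl24, Car4 and Krt19, all lower with AMD3100, and limma-voom called 0. Retnla was measured at 19.5, 2.19 and 8.08 CPM in tumours given TM, a log2 difference of -2.26 between the arms (SE 0.61), with TM tumour 2 inside the range of the AMD3100 tumours. Rnase2a stood at 18.4, 12.1 and 30.6 CPM in those tumours, all above the AMD3100 tumours. The alternatively activated macrophage level was 4.29, 3.85 and 4.37 with TM, above all 3 tumours given AMD3100. The type I interferon level was 5.39, 5.36 and 5.39, below all 3 tumours given AMD3100 and above all 3 vehicle tumours. The vehicle tumours serve both arms, so the 2 comparisons with vehicle are not independent.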

How the data were processed

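Poly(A) RNA extracted with Trizol was sequenced as paired reads, per the labels' protocols. The authors deposited whole-number read counts per gene symbol for the mouse tumours. Among genes with 1 to 20 counts, 58.0 to 66.1% had an even count in the 4T1 tumours, for a reason that was not tested. Per the submitters' processing notes, tools included featureCounts 2.0.1 and MultiQC 1.11, and the builds named were GRCm38 and GRCh38. The aligner and strand setting are not given in the sources used here. Reads of near-identical or overlapping genes (Hspa1a and Hspa1b, Mcpt1 and Mcpt2, Rnase2a) may be split between them. No coordinates or sequences are given because a mouse annotation was not used here.

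The table held 25239 genes, of which 15846 passed edgeR's filterByExpr over the 9 4T1 tumours. Counts were scaled by TMM and tested with edgeR 4.0.16 (R 4.3.3) by the quasi-likelihood F test over all 3 groups, with 6 residual degrees of freedom. Benjamini-Hochberg adjustment ran over all tested genes, and an adjusted p under 0.05 was a call. Log2 CPM used a prior count of 2, and SE is the log2 difference divided by the square root of F. An exact two-sided permutation of 3 against 3 tumours cannot give a p under 0.1, so it was not used. The code was tested on simulated data.

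Samples were grouped by title. The comparison and gene lists were chosen with earlier results of these data known. Named genes were the 10 of smallest unadjusted p per direction (at least 5 CPM in the higher group, no overlap, no numbered locus), the 2 to 4 tested members of highest CPM in each list described, and a fixed set of drug targets and markers. Other genes named, including Cxcl13, Cr2, Tap1, Mrc1, Cd163, Retnlg, Cxcr2, Krt7, Ahsa1, Madcam1, Ccl19, Osgin1, Gsr, Gclc, Dpp4, Car4 and Krt19, were chosen after their values were seen. Some genes that the rule selects are not reported here. Alternatives were DESeq2 size factors, DESeq2 1.42.0, limma-voom 3.58.1, no low-count filter, a replicate block, the compared groups alone, each tumour left out, and cell type levels as covariates. The fit with B cell and epithelial levels together and the macrophage level without Mrc1 and Cd163 were chosen after seeing the data.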

Additional observations from a re-analysis of the deposited data

How the results depend on the processing

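Against vehicle, the count of called genes was 0 with edgeR, 21 with DESeq2 and 1 with the compared groups alone (Retnla, lower, adjusted p = 0.0119, edgeR). With each tumour left out in turn it ran from 0 to 1, the calls being Cyp24a1 without vehicle tumour 3 (lower, adjusted p = 0.0435, edgeR) and Mcpt2 without treated tumour 2 (higher, adjusted p = 0.0448, edgeR). The cause of these differences was not tested. All other settings called 0. Genes at an unadjusted p under 0.05, 1144 in the reported fit, ran from 414 without vehicle tumour 2 to 2078 without treated tumour 2. They were 681 without vehicle tumour 1, 1779 without vehicle tumour 3, 521 without treated tumour 1, 571 with the fibroblast level and 1727 with the skeletal muscle level as covariate. Against the TM arm, DESeq2 called 4 genes and edgeR 0.

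The replicate numbers were not taken to pair the tumours. Correlations of same-numbered deviations ran from -0.468 to 0.597, and 2 of 9 tumours correlated best with their own number. With the number as a block, 0 genes were called and 1056 reached an unadjusted p under 0.05.

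Of 48 list medians, several had 1 sign in all 21 alternatives. Among them were those of the type I interferon, alternatively activated macrophage, epithelial, macrophage and mast cell lists. In that order they ranged from 0.52 to 1.115, -1.12 to -0.51, -0.88 to -0.04, -0.43 to -0.07 and 0.40 to 2.00. The epithelial end of -0.04 came with the epithelial level itself as covariate. The CD8 T cell, CD4 and regulatory T cell, NK cell, fibroblast, keratinocyte and cytotoxic lists also kept 1 sign. The interferon-gamma, ATF4 and CHOP, mitochondrial respiration and ribosomal protein lists did so too. The T cell and neutrophil medians changed sign only with their own level as covariate. The B cell median ran from -1.38 to 6.403. Depth was 39628481 counts or more in each of the 6 tumours. The common biological coefficient of variation, which edgeR estimated over all genes and the 3 groups together, was 0.316.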
